A study of Homo sapiens with 10 samples.

Results

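The genes described here are 38 listed members of the glycolysis and hypoxia response of human cells: 2 glucose transporters, 16 glycolytic enzymes and 20 further targets of the hypoxia-inducible factors (HIF). Each gene was read from the probe set of highest mean intensity among those annotated with exactly 1 gene symbol, control probe sets left out. Of the 38 genes, 37 had such a probe set, among 19775 genes in all, and CA9 was not analysed here. A filter was set at the median over all genes of the mean log2(intensity + 6.1), which corresponds to an intensity of 149. It left 9888 genes for testing, and 34 members passed it: both transporters, 15 enzymes and 17 HIF targets. The 3 below it were the neuronal enolase ENO2, at intensities of 2.6 to 18.1 over all arrays, the mitophagy receptor BNIP3, at 1.6 to 41.6, and the collagen cross-linking oxidase LOX, at 2.1 to 52.4.

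Expression was measured on 10 single-channel arrays of biotin-labelled total RNA from cultured human gastric cancer cells. A side population is the fraction of cells that pumps out a Hoechst DNA dye and so stays dim in a flow sorter, while non-side population cells keep the dye. There were 4 arrays of side population cells and 4 of non-side population cells, lettered a to d in each group, and 2 arrays of unsorted cells, lettered a and b. The origin label of every array names both AGS and MKN 45, established lines from gastric carcinoma. The source label names AGS on 8 arrays and names no line on side population arrays a and b. All cells were grown in serum-supplemented RPMI medium, and the labels give no treatment with low oxygen. They do not say what a letter stands for, whether the arrays came from separate cultures, or whether unsorted cells were stained and passed through the sorter. The p-values therefore measure the spread between these arrays, which may be technical. In comparisons with unsorted cells, a difference of cell population cannot be told apart from an effect of staining, sorting or other handling.

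Glycolysis splits glucose into pyruvate in the cytosol, and lactate dehydrogenase then turns pyruvate into lactate so that the pathway can run without oxygen. When oxygen is plentiful, prolyl hydroxylases of the EGLN family mark the HIF alpha subunits for destruction through the VHL ubiquitin ligase. When oxygen is scarce the alpha subunits persist, pair with ARNT and bind DNA at short motifs, and they switch on glucose uptake, most glycolytic enzymes, blood vessel growth factors, mitophagy genes and the hydroxylases EGLN1 and EGLN3 themselves.

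The deposited values were linear intensities, already scaled by the authors so that each array had nearly the same trimmed mean, and the median intensity lay between 58.7 and 85.4. Differences are given on the log2(intensity + 6.1) scale with the standard error of limma's fit over all 10 arrays, and calls were made at an adjusted p under 0.05, with Benjamini-Hochberg adjustment across all 9888. The labelled epithelial identity was checked on 7 measured epithelial markers. All 7 passed the filter, and their summed intensity was 98530.3 to 125563 in side population, 87488.3 to 145191.5 in non-side population and 123223.5 to 135193.4 in unsorted arrays. Of 5 leukocyte markers only LYZ passed the filter, but it was bright. Its mean intensity was 27532.8 (6247.4 to 43612.3), against 22036.5 for the epithelial marker EPCAM. The pan-leukocyte marker PTPRC stayed between 2.2 and 34.4. None of 4 endothelial markers passed, 1 of 6 fibroblast markers did (COL1A1), and 1 of 2 red cell markers did (HBB). Side population array a stood apart in the ratio of 3′ to 5′ probe sets for actin, a sign of RNA integrity, at 3.34 against 0.987 to 1.28 on the other 9 arrays, and for GAPDH at 1.87 against 0.864 to 1.06. Non-side population array c had the lowest 99th percentile of intensity, 12795.5 against 15965.5 to 20053.4 on the other 9.

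Sorted cells differed from unsorted cells in a few HIF targets and in no called enzyme. In side population cells 4 of 34 members were called, where 2.45% of all genes tested were (1.89% higher and 0.556% lower): the growth restraint gene DDIT4, the glycolytic regulator PFKFB3 and the ankyrin repeat gene ANKRD37 rose, and the hydroxylase EGLN3 fell. In non-side population cells 3 of 34 members were called, where 3.66% of all genes were (2.46% higher and 1.2% lower): DDIT4 and PFKFB3 rose and EGLN3 fell. None of the 15 enzymes or 2 transporters was called in either comparison. By limma 3 of 15 enzymes in the side population had an unadjusted p under 0.05, which 1704 of 9888 genes tested had. In the non-side population 1 of 15 enzymes had one, as did 1934 of 9888 genes. The comparisons share the 2 unsorted arrays, so their values are given side by side and are not independent. In these bulk samples fewer cells of a type and less RNA per cell cannot be told apart.

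The sequence upstream of the 4 called genes is shown because HIF binds the core motifs ACGTG and GCGTG. The 250 bases before each start site are RefSeq sequence of GRCh38.p14, written 5′ to 3′ on the gene's own strand. They are chr10:72273674-72273923 (plus strand) for DDIT4, chr10:6144671-6144920 (plus) for PFKFB3, chr4:185396591-185396840 (plus) for ANKRD37 and chr14:33951075-33951324 (minus) for EGLN3, and capitals mark each ACGTG or GCGTG on either strand.
DDIT4: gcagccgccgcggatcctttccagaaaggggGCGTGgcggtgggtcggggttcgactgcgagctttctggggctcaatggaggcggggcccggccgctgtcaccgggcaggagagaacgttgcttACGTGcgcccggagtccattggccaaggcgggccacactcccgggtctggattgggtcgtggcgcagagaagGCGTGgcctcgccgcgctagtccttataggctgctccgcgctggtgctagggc
PFKFB3: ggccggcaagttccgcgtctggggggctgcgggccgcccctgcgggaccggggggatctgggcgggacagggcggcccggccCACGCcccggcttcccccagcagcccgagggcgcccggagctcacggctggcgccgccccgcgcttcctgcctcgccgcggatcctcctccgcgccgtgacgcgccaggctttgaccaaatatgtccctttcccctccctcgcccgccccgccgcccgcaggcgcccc
ANKRD37: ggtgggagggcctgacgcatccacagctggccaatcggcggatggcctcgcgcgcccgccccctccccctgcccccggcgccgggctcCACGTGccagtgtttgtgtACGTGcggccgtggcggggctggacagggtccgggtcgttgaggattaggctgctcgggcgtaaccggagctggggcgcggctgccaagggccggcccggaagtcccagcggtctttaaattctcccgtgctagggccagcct
EGLN3: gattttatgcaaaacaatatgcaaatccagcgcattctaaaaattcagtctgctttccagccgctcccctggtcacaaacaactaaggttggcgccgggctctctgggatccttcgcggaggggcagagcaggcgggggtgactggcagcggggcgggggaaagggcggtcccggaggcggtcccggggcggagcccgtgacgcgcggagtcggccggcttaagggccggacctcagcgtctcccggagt
The DDIT4 sequence held GCGTG at 219 and 53 bases and ACGTG at 125 bases before the start. PFKFB3 held 1 match, GCGTG on the reverse strand 168 bases before the start. In ANKRD37 the palindrome CACGTG, which reads as ACGTG on both strands, lay 162 bases before the start, and a further ACGTG lay at 143 bases. EGLN3 held 0 matches. Over windows that also take in the first 50 transcribed bases, 33 of the 38 members had an entry. These include ENO2 and the HIF targets BNIP3, LOX and CA9, which were not among the genes tested and each held ACGTG. The shares of members and of genes tested below therefore cover unlike sets. ACGTG on either strand was present in 16 of 33 (48.5%), in 8 of 17 transporters and enzymes (47.1%) and in 8 of 16 HIF targets (50%), against 27.9% of the 8236 windows of genes tested and 21.4% of all 35116 windows. GCGTG was present in 15 of 33 (45.5%), against 51.6% and 36.5%, and CACGTG, an E-box that overlaps ACGTG, in 5 of 33 (15.2%), against 10.7% and 7.26%. Either ACGTG or GCGTG was present in 24 of 33 members (72.7%) and in 12 of 16 HIF targets (75%). Among windows of genes tested the share was 64.4%, and among all windows 48.4%. A match is a description of the letters and not a binding site. Whether matches go with the direction of change was not tested.

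DDIT4, which encodes an inhibitor of the mTORC1 growth kinase, had the largest rise among members called. Its intensity was 12654.1, 4212.5, 10742.3 and 11659.6 in side population arrays a to d, 13810.5, 5033.1, 10064.8 and 10507.8 in non-side population arrays a to d, and 2322.8 and 2827.6 in unsorted arrays a and b. All 8 sorted arrays lay above both unsorted arrays, and array b was the lowest of each sorted group. Against unsorted cells the log2 difference was 1.82 ± 0.43 in side population (3.52-fold; adjusted p = 0.0435) and 1.85 ± 0.43 in non-side population (3.61-fold; adjusted p = 0.0306). The side population call was lost without side population array a (adjusted p = 0.102), c (0.0878) or d (0.0751), non-side array d (0.0624), or unsorted array a (0.461) or b (0.242). The non-side call was lost without non-side array a (0.0746) or d (0.0672), or unsorted array a (0.370) or b (0.188). DDIT4 lies at chr10:72273924-72276036.

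PFKFB3 makes fructose 2,6-bisphosphate, the activator of phosphofructokinase, and so speeds glycolytic flux. Its intensity was 1666.2, 1350.8, 1062.4 and 1215.0 in side population arrays a to d, 1023.8, 1033.6, 1606.2 and 1468.7 in non-side population arrays a to d, and 497.9 and 679.7 in unsorted arrays. The lowest sorted array, 1023.8, lay above both unsorted ones, while the sorted groups overlapped each other. The log2 difference from unsorted cells was 1.16 ± 0.28 in side population (2.23-fold; adjusted p = 0.0466) and 1.10 ± 0.28 in non-side population (2.15-fold; adjusted p = 0.0461). Both values lie close to the threshold. The side population call was kept without non-side array b or c and lost without side population array a (0.109), b (0.0842), c (0.0541) or d (0.0665), non-side array a (0.0588) or d (0.0648), or unsorted array a (0.579) or b (0.217). The non-side call was lost without side population array b (0.0561), c (0.0503) or d (0.0623), non-side array a (0.0549), c (0.0528) or d (0.0937), or unsorted array a (0.551) or b (0.188). PFKFB3 lies at chr10:6144921-6326637.

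ANKRD37, a small ankyrin repeat protein gene listed among direct HIF targets, read 564.6, 973.9, 932.9 and 693.3 in side population arrays a to d, 565.3, 1068.6, 502.4 and 512.5 in non-side population arrays a to d, and 227.8 and 304.5 in unsorted arrays. Again all 8 sorted arrays lay above both unsorted ones, with non-side array b the highest of all. The log2 difference from unsorted cells was 1.53 ± 0.34 in side population (2.89-fold; adjusted p = 0.0341). In non-side population it was 1.24 ± 0.34 (2.35-fold) and did not pass (adjusted p = 0.0594). That one comparison passed and the other did not is no test of their difference: side minus non-side population was 0.30 ± 0.28 (95% interval -0.30 to 0.89). The side population call was lost without side population array b (0.0697) or c (0.0712), or unsorted array a (0.468) or b (0.177). ANKRD37 lies at chr4:185396841-185400723.

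EGLN3 is an oxygen-dependent prolyl hydroxylase that HIF induces and that acts back on HIF. Its intensity was 1231.5, 1700.8, 918.8 and 1152.0 in side population arrays a to d, 1729.0, 1266.7, 787.9 and 1454.0 in non-side population arrays a to d, and 3577.0 and 3931.4 in unsorted arrays. The highest sorted array, 1729.0, was below the lower unsorted array, and within each sorted group array c was the lowest. EGLN3 fell by 1.61 ± 0.32 on the log2 scale in side population (3.06-fold lower; adjusted p = 0.0210), and fell by 1.57 ± 0.32 in non-side population (2.97-fold lower; adjusted p = 0.0167). Of the 10 fits that left out 1 array, the side population call was lost without unsorted array a (0.272) or b (0.226), and the non-side call likewise (0.225 and 0.192). The gene lies at chr14:33924227-33951074 on the minus strand.

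**Figure D1:**
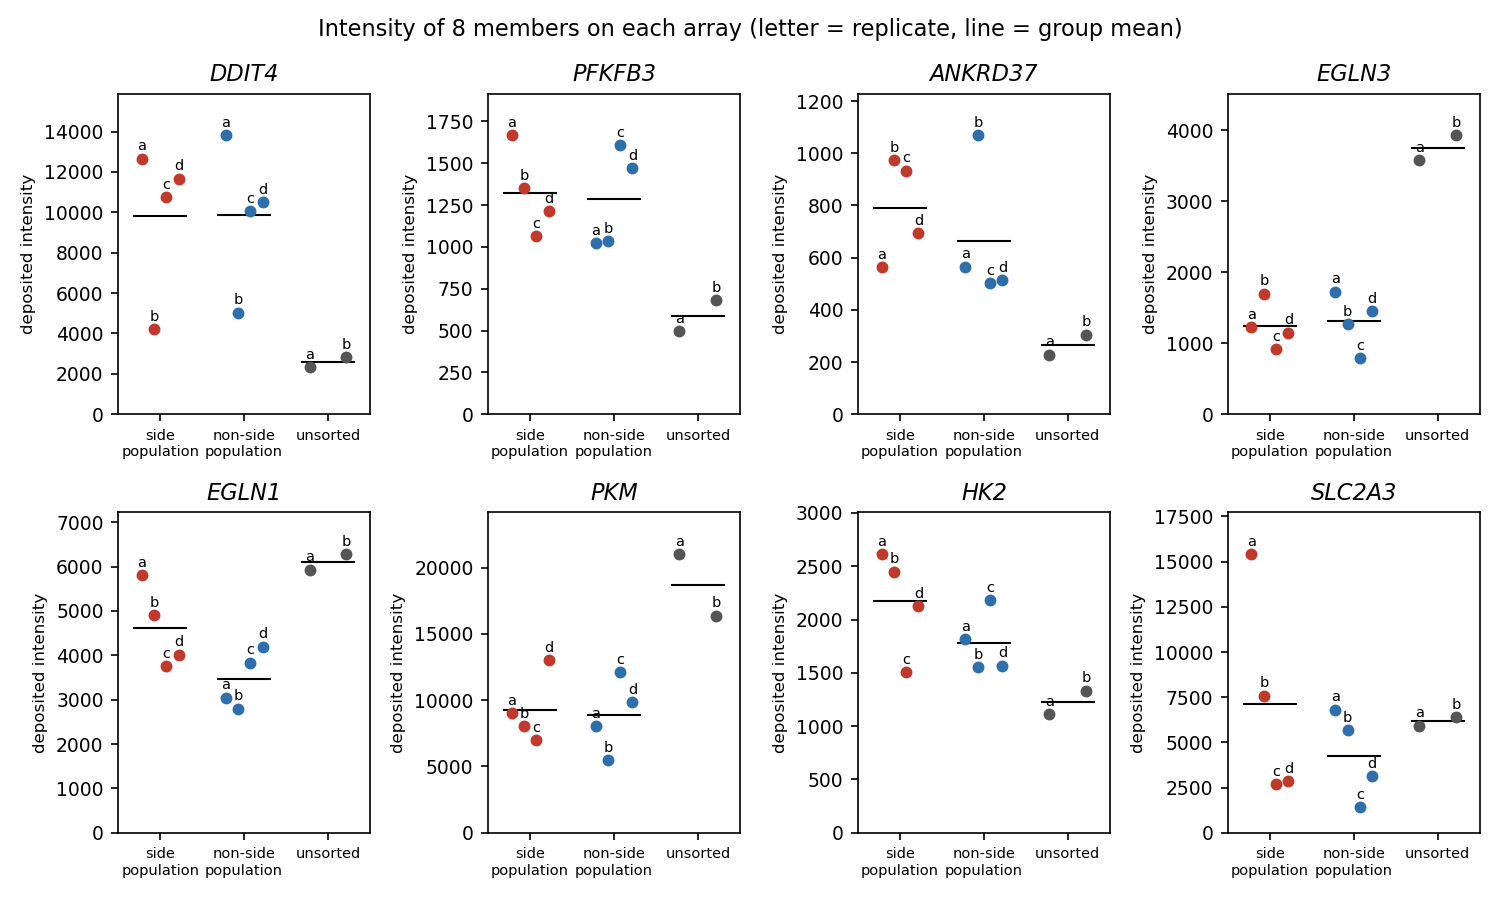
Intensity on each array (letters) for 8 members, with a line at each group mean, in side population (n = 4), non-side population (n = 4) and unsorted (n = 2) cells. DDIT4, PFKFB3 and ANKRD37 are higher on all 8 sorted arrays than on both unsorted arrays, EGLN3 and PKM are lower, and SLC2A3 separates arrays a and b of the sorted groups (5694.5 to 15432.7) from c and d (1407.2 to 3118.6).

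EGLN3 had a second probe set above the filter that did not show this fall. That probe set read 1050.6, 1142.4, 703.4 and 729.3 in side population arrays, 1271.4, 1711.5, 527.6 and 780.5 in non-side population arrays, and 896.2 and 1054.8 in unsorted arrays. Its log2 difference from unsorted cells was -0.13 ± 0.41 for side population and 0.00 ± 0.41 for non-side population, so the fall of EGLN3 rests on 1 of its 2 probe sets. DDIT4 and PFKFB3 had 1 probe set each, and the second ANKRD37 probe set was below the filter, at 4.2 to 43.9 on the sorted arrays. A fit of 20546 single probe sets was added after the values were seen. Its cut was the median over probe sets, which let in dimmer ones than the filter on genes. In this fit DDIT4 in side population (adjusted p = 0.0555) and PFKFB3 in side population (0.0569) and non-side population (0.0529) were no longer called. DDIT4 in non-side population (0.0402), ANKRD37 in side population (0.0451) and the first EGLN3 probe set (0.0289 and 0.0226) were called there.

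EGLN1, the main oxygen sensor among the prolyl hydroxylases, read 5800.4, 4897.0, 3759.9 and 4012.3 in side population arrays a to d, 3047.6, 2799.2, 3836.3 and 4191.7 in non-side population arrays, and 5927.6 and 6285.5 in unsorted arrays. Every sorted array was below both unsorted ones, yet the log2 difference did not pass in side population (-0.42 ± 0.26, adjusted p = 0.424) or non-side population (-0.83 ± 0.26, adjusted p = 0.0852). Its other 2 probe sets above the filter had larger differences. In the same fit of single probe sets one of them was lower by 1.16 ± 0.27 on the log2 scale in side population (log2 difference -1.16, adjusted p = 0.0483) and had -1.15 in non-side population (adjusted p = 0.0372). The other had -0.85 (adjusted p = 0.0847) and -0.90 (adjusted p = 0.0599). Thus all 3 EGLN1 probe sets had negative differences, whereas of the 2 for EGLN3 a single one fell. EGLN1 lies at chr1:231363756-231422287.

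**Figure D2:**
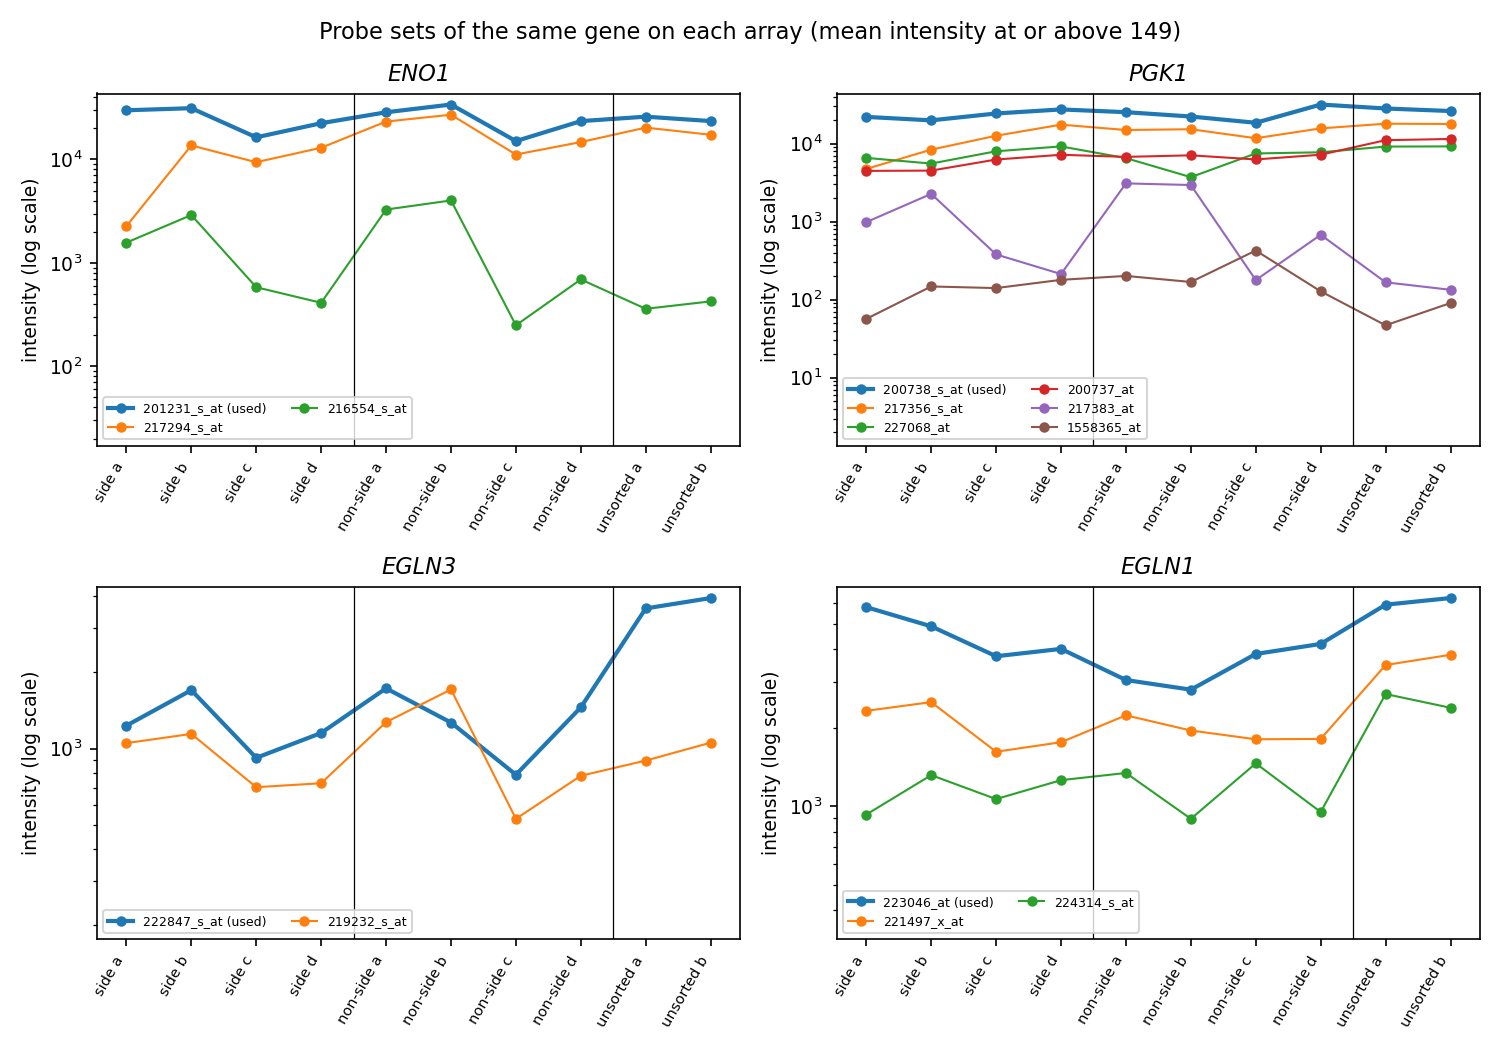
Intensity on a log axis across the 10 arrays for each probe set of ENO1, PGK1, EGLN3 and EGLN1 with a mean intensity of at least 149, the thick line being the probe set used for the gene. Probe sets of 1 gene run apart: the second EGLN3 probe set lacks the higher unsorted values (896.2 and 1054.8). The ENO1 probe set used, a dimmer ENO1 probe set and 1 PGK1 probe set are higher on sorted arrays a and b than on c and d.

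Most of the 17 HIF targets, the called ones included, had positive differences from unsorted cells, and most did not pass the test. The median log2 difference of the 17 was 0.64 in side population, with 12 positive and 5 negative. The range there was from -1.61 (EGLN3) to 1.82 (DDIT4), both of them called. In non-side population the median was 0.22, again with 12 positive and 5 negative. The same median over all genes tested was 0.04 and -0.01, and over the brightest 10% of tested genes 0.09 and 0.08. Positive differences made up 70.6% of the HIF targets in both comparisons. They made up 53.4% and 49.1% of all genes tested, and 61.4% and 60.8% of the brightest 10%. With the median of all probe sets of a gene in place of the brightest, the side population median was 0.44. Epithelial markers lay on the other side, with 6 of 7 negative in both comparisons (medians -0.46 and -0.23). Their part in the result was not tested.

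PDK1, the kinase that shuts pyruvate out of the mitochondria, had a log2 difference of 1.00 ± 0.51 in side population (adjusted p = 0.337), with intensities of 545.9, 380.4, 589.1 and 607.0 against 251.9 and 264.6 in unsorted arrays. In non-side population arrays it ran from 177.4 in array b to 1052.7 in array c, the widest spread among the 3 flux regulators. VEGFA, the vascular growth factor, was above both unsorted arrays (1949.0 and 2242.6) in side population (2338.9 to 5057.1) but overlapped them in non-side population (2173.6 to 6198.5). Its log2 differences were 0.74 ± 0.38 (adjusted p = 0.337) and 0.96 ± 0.38 (adjusted p = 0.181). Of the 4 VEGFA probe sets tested singly, 2 had negative differences in side population (-0.59 ± 0.56 and -0.26 ± 0.50).

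The remaining HIF targets had adjusted p-values above the threshold as well. BNIP3L, a mitophagy receptor, had a log2 difference of 0.77 ± 0.40 in side population (adjusted p = 0.342), and its second probe set had the opposite sign (-0.29). NDRG1, a stress-induced growth restraint gene, had 0.72 ± 0.34 (adjusted p = 0.290) and P4HA1, a collagen prolyl hydroxylase, 0.64 ± 0.31 (adjusted p = 0.308). On the lower side, the lipid droplet protein HILPDA had -0.77 ± 0.31 (adjusted p = 0.202) and the disulphide oxidase ERO1A -0.50 ± 0.23 (adjusted p = 0.291), although the other 2 ERO1A probe sets had positive differences (0.14 and 0.74). ADM, the vasodilator peptide adrenomedullin, had 0.78 ± 0.34 in non-side population (adjusted p = 0.225).

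Glycolytic enzymes showed no common shift between sorted and unsorted cells. The median log2 difference of the 15 tested was -0.03 in side population (5 positive, 10 negative) and -0.07 in non-side population (6 positive, 9 negative). The 2 steps with the clearest differences ran in opposite directions. PKM, pyruvate kinase, which makes the pyruvate and ATP at the end of the pathway, read 8999.8, 8017.8, 6977.5 and 13008.8 in side population arrays, 8053.7, 5498.7, 12108.3 and 9870.4 in non-side population arrays, and 21035.6 and 16367.2 in unsorted arrays. All 8 sorted arrays were lower, but the differences of -1.04 ± 0.32 and -1.12 ± 0.32 did not pass (adjusted p = 0.0978 and 0.0642), and the second PKM probe set had positive ones (0.58 and 0.38). HK2, the inducible hexokinase that traps glucose in the cell, read 2616.2, 2450.2, 1507.7 and 2126.5, then 1817.0, 1552.3, 2181.5 and 1567.9, against 1112.2 and 1332.2 in unsorted arrays. HK2 was higher on every sorted array, with differences of 0.80 ± 0.27 (adjusted p = 0.131) and 0.53 ± 0.27 (adjusted p = 0.303). In the fit of single probe sets a dimmer HK2 probe set had positive differences (0.29 and 0.45). Another dim HK2 probe set had negative ones (-0.35 and -0.19). The other hexokinase, HK1, had 0.98 ± 0.40 (adjusted p = 0.211) and 0.78 ± 0.40 (adjusted p = 0.304). PKM, HK2 and the transporter below were taken for their values after these were seen.

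For the other steps from TPI1 to LDHA no difference passed with the gene's brightest probe set. In side population the log2 difference from unsorted cells was 0.29 ± 0.29 for GAPDH, which makes the NADH of the pathway, 0.06 ± 0.30 for lactate dehydrogenase LDHA and -0.03 ± 0.32 for the enolase ENO1. The isomerase TPI1 had -0.01, the phosphoglycerate kinase PGK1 -0.23 and the mutase PGAM1 -0.38, with side population arrays (14109.5 to 18881.5) all below the unsorted ones (20836.9 and 22239.0). PGK1 had 6 probe sets with a mean intensity of at least 149. One of them passed in the fit of single probe sets, with -1.04 ± 0.24 in side population (adjusted p = 0.0451), while another had 2.09 ± 1.05 (adjusted p = 0.292), so the sign of PGK1 depends on the probe set.

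**Figure D3:**
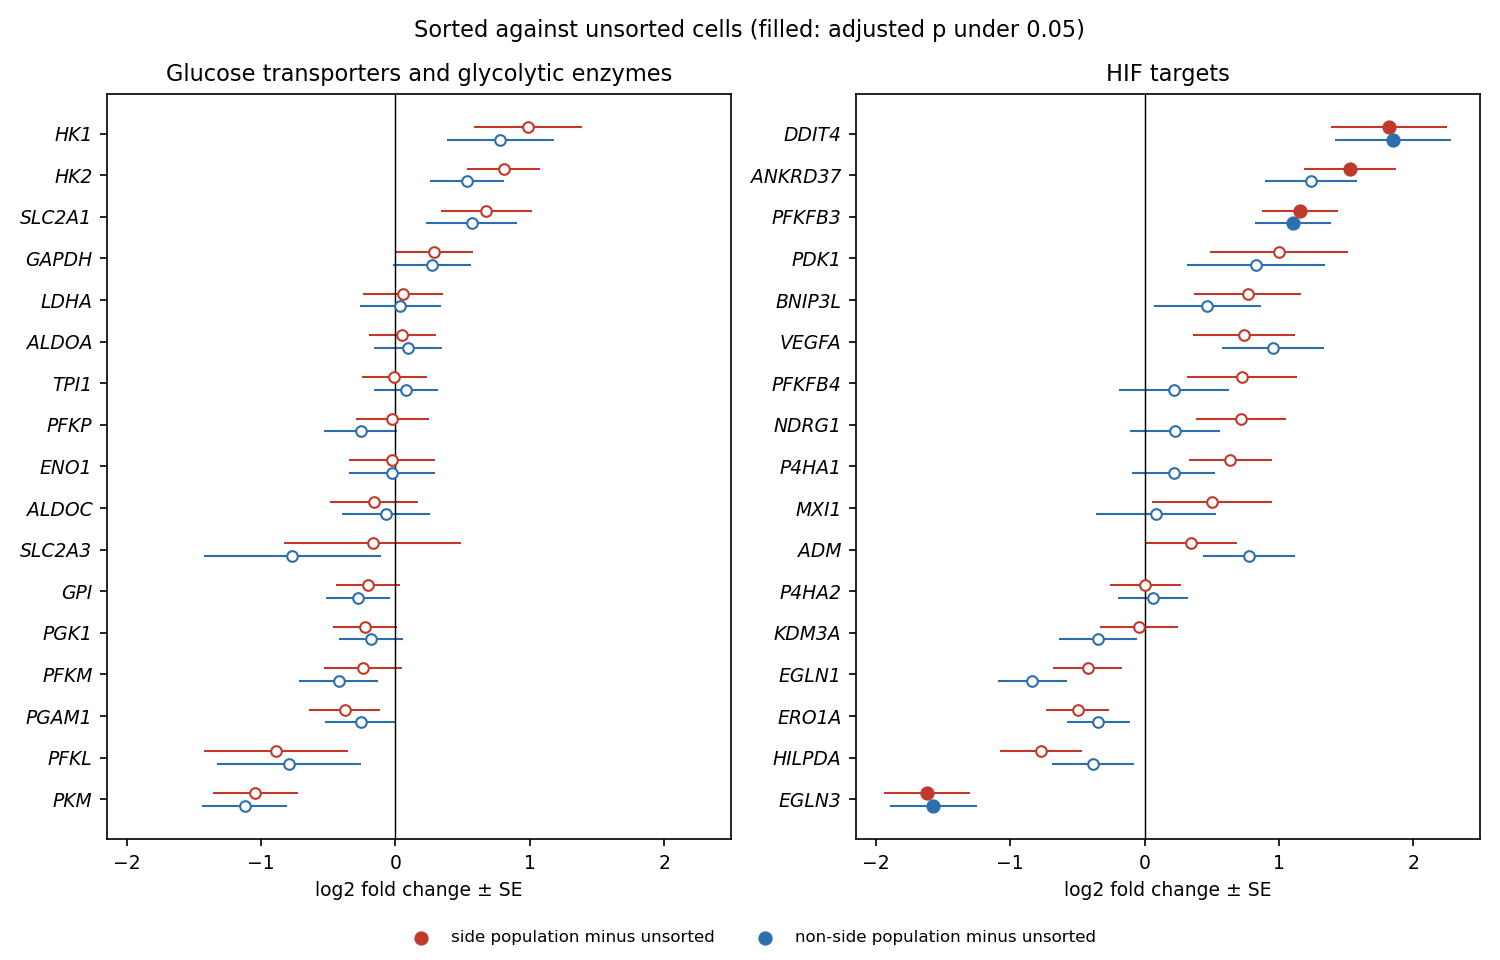
Log2 difference from unsorted cells (dot, bars are ± 1 standard error of limma's fit) for 17 transporters and enzymes and 17 HIF targets, in side population and non-side population cells, filled where the adjusted p was under 0.05. The filled points are DDIT4, PFKFB3 and EGLN3 in both comparisons and ANKRD37 in side population, all among the HIF targets.

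Neither of the glucose transporters was called. SLC2A1 (GLUT1), the widely expressed transporter, had a log2 difference of 0.68 ± 0.34 in side population (adjusted p = 0.325), and its second probe set had -0.30 ± 0.29. SLC2A3 (GLUT3), a high-affinity transporter, read 15432.7, 7593.9, 2696.9 and 2848.9 in side population arrays a to d, 6812.0, 5694.5, 1407.2 and 3118.6 in non-side population arrays a to d, and 5933.2 and 6394.0 in unsorted arrays. The sorted arrays a and b lay above all sorted arrays c and d. SLC2A3 had a log2 difference from unsorted cells of -0.17 ± 0.66 in side population (adjusted p = 0.932). In non-side population it had -0.77 ± 0.66 (adjusted p = 0.557). Its other 2 probe sets were higher in both unsorted arrays (7352.9 to 8369.5, and 3609.9 to 4122.8) than in all sorted ones, with differences of -1.53 ± 0.57 and -1.32 ± 0.66 in side population, neither of which passed (adjusted p = 0.156 and 0.292).

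Groups whose arrays did not overlap were also counted. Side population and unsorted arrays did not overlap in 18 of 34 members (52.9%), where 36.8% of all genes tested did not (21.4% higher, 15.5% lower). The count was 13 of 17 HIF targets (76.5%; 9 higher, 4 lower) and 4 of 15 enzymes (26.7%; 1 higher, 3 lower). Non-side population and unsorted arrays did not overlap in 8 of 34 members (23.5%), where 31.9% of all genes did not (15.6% higher, 16.3% lower), with 6 of 17 HIF targets (35.3%) and 2 of 15 enzymes (13.3%). The members' share was above that of all genes in the first comparison and somewhat below it in the second. In the second the HIF targets lay slightly above it and the enzymes below. Neither difference was tested.

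Between side population and non-side population cells no member was called. By limma 0 of 34 members were called, as were 0% of all genes tested, and 0 of 34 had an unadjusted p under 0.05, which 430 of 9888 genes had. The groups overlapped in all 34 members, where 1.59% of genes tested did not (1.01% higher and 0.576% lower in side population). The median log2 difference, side minus non-side population, was 0.02 for enzymes (range -0.12 to 0.27) and 0.17 for HIF targets (range -0.43 to 0.51), against 0.04 over all genes. With the median of all probe sets of a gene the HIF target median was -0.07, so its direction is not settled.

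The members of smallest p were EGLN1, NDRG1 and P4HA1. For EGLN1 the difference was 0.41 ± 0.21 (95% interval -0.04 to 0.86; adjusted p = 0.997), and arrays a and b carried it, since the intensities above were 5800.4 and 4897.0 against 3047.6 and 2799.2 there and nearly level in c and d. Its other 2 probe sets above the filter had 0.05 ± 0.20 and -0.01 ± 0.22. NDRG1 read 1311.5, 1119.2, 806.0 and 867.8 in side population and 626.6, 609.1, 1236.1 and 551.0 in non-side population, with 704.1 and 527.7 in unsorted arrays. It was higher in side population in letters a, b and d and lower in c, for a difference of 0.49 ± 0.27 (interval -0.09 to 1.08; adjusted p = 0.997). P4HA1 read 1853.4, 2697.4, 1883.1 and 2311.7 in side population arrays, 1317.8, 1089.6, 2255.6 and 2087.5 in non-side population, and 1379.6 and 1394.6 in unsorted arrays. Its non-side arrays fell in 2 levels, a and b low and c and d high, and the difference was 0.42 ± 0.25 (interval -0.12 to 0.96; adjusted p = 0.997).

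The intervals bound what these arrays could show. For DDIT4 the difference between the sorted groups was -0.04 ± 0.35 (interval -0.79 to 0.72), for EGLN3 -0.05 ± 0.26 (-0.60 to 0.52), for PFKFB3 0.05 ± 0.23 (-0.44 to 0.55) and for LDHA 0.02 ± 0.25 (-0.51 to 0.55). The intervals do not show that the groups are alike. SLC2A3 had the widest spread of those named, 0.60 ± 0.54 (-0.55 to 1.75).

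With the brightest probe set of each gene, many HIF targets changed sign between array letters. Taking side minus non-side population within each letter, 9 of 17 HIF targets (52.9%) had one sign in a and b and the other in c and d, against 21.4% of all genes tested and 2 of 15 enzymes (13.3%). In 7 of the 9 the side population was higher in a and b and lower in c and d: PFKFB3, PFKFB4 (which also makes fructose 2,6-bisphosphate), PDK1, EGLN1, the histone demethylase KDM3A, VEGFA and BNIP3L. DDIT4 and ANKRD37 ran the other way. The pattern depended on the probe set. The fit of single probe sets held 7 further ones for 4 of these genes (PDK1, EGLN1, VEGFA and BNIP3L). Of the 7, 1 for EGLN1 had the same signs, 1 for BNIP3L had all 4 signs reversed and 5 had neither pattern. The median HIF target difference was 0.38, 0.42, -0.17 and -0.06 in letters a to d, the enzyme median 0.06, -0.04, 0.11 and -0.07, and the median of all genes 0.12, 0.08, -0.01 and 0.01. MXI1, a MYC antagonist, was the 1 member with the same sign in all 4 letters (2.94% of members against 8.96% of genes). The side population arrays with letters a and b are the ones whose source label names no line, so within the side population letter and line cannot be told apart, while the source label of all 4 non-side arrays names AGS. On those arrays LYZ read 6247.4 and 12777.7, lower than on any of the other 8. The part of either in the result was not tested.

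**Figure D4:**
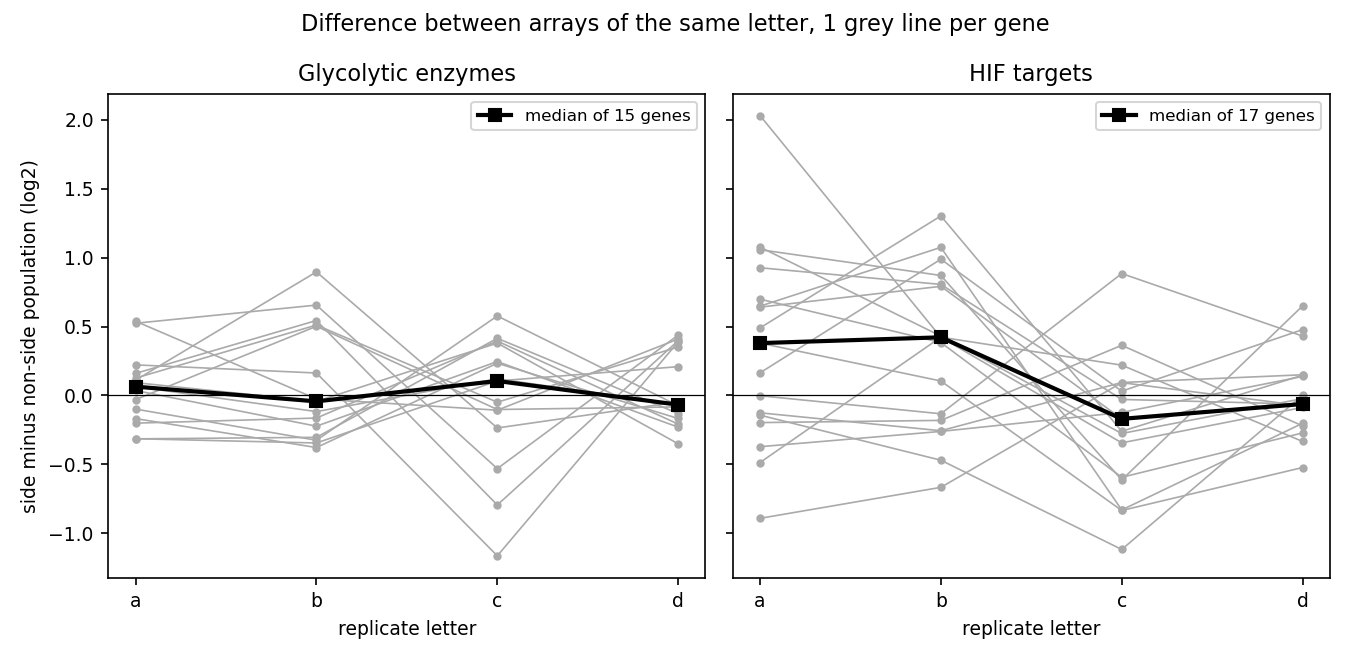
Side population minus non-side population difference (log2) within each letter a to d, a grey line per gene and the median in black, for 15 enzymes and 17 HIF targets. The HIF target median is above 0 in a and b (0.38 and 0.42) and below 0 in c and d (-0.17 and -0.06), while the enzyme median stays between -0.07 and 0.11.

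The mean deviation of each array from the gene means ran over all tested genes of a role, with or without this pattern. It therefore does not show where the pattern of single genes lay. For HIF targets the mean log2 deviation was 0.18, 0.06, 0.08 and 0.18 in side population arrays a to d, -0.17, -0.27, 0.29 and 0.17 in non-side population arrays a to d, and -0.28 and -0.25 in unsorted arrays. By this mean the side population arrays lay within a narrow band. Non-side arrays a and b were near the unsorted arrays, and c and d were above them. Single genes differed: within the side population PFKFB3, PFKFB4 and EGLN1 were higher in a and b than in c and d. PDK1 and BNIP3L were lower there, and KDM3A, VEGFA, DDIT4 and ANKRD37 overlapped. For enzymes the deviation was 0.11, -0.09, -0.20 and 0.18, then 0.06, -0.18, -0.16 and 0.13, then 0.15 and -0.01, with no order by group. The same deviation over all genes tested spanned -0.09 to 0.07.

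Lowest enzyme values were frequent in non-side array c. The lowest value over the 10 arrays fell in non-side array c for 7 of 15 enzymes (46.7%, against 16.9% of all genes tested): ALDOA, TPI1, GAPDH, PGK1, PGAM1, ENO1 and LDHA, which run from aldolase, the enzyme that splits fructose bisphosphate, to lactate dehydrogenase. In non-side array b it fell for 5 of 15 (33.3%), nearer the share of all genes (21.3%): GPI, PFKL, PFKM, PFKP and PKM. The isomerase GPI and the phosphofructokinases PFKL, PFKM and PFKP act before aldolase, and PKM acts after it. Array b also held the highest value for 4 of 15 enzymes (26.7%, against 18.0% of all genes tested): ALDOA, PGAM1, ENO1 and LDHA. GAPDH read 45861.1, 38260.9, 27634.0 and 34064.3 in side population arrays, 42999.0, 39411.3, 21226.6 and 43457.8 in non-side population arrays, and 29907.9 and 28810.0 in unsorted arrays. LDHA read 27133.6, 29491.5, 22306.2 and 21217.8, then 29060.4, 36944.1, 14947.4 and 22328.4, then 25160.1 and 22630.5. Non-side array c was lowest for both, and it is also the array with the lowest 99th percentile of intensity. The part of its intensity range in these enzyme values was not tested.

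**Figure D5:**
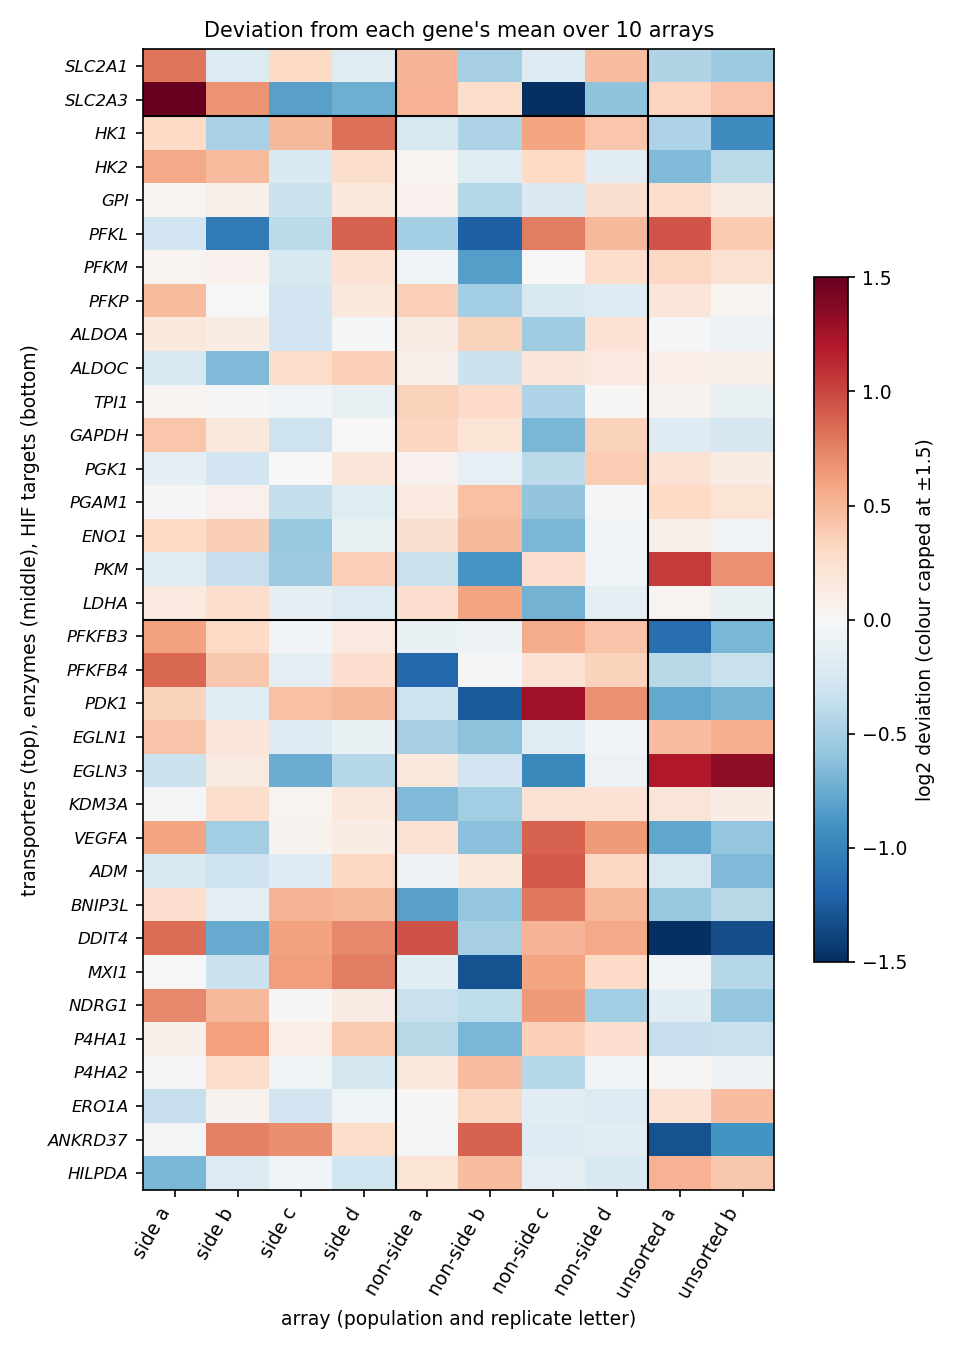
Log2 deviation of each tested member (rows, by role) from its mean over the 10 arrays (columns), with colours capped at ± 1.5. HIF targets are on average above their means in side population arrays (mean deviations 0.06 to 0.18) and below them in unsorted arrays, and ALDOA, TPI1, GAPDH, PGK1, PGAM1, ENO1 and LDHA have their lowest values in non-side population array c.

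Further genes of the pathway showed no called change. Of 15 genes of the HIF machinery, 12 were tested, among them HIF1A, EPAS1, ARNT and VHL, and 0 were called in any of the 3 comparisons. Their median log2 differences were 0.12 (side minus non-side), 0.20 (side minus unsorted) and 0.03 (non-side minus unsorted). Of 27 other glycolysis, lactate and pyruvate genes 17 were tested, with 0 called and medians of -0.04, 0.09 and 0.12. Of 30 further HIF targets 17 were tested, again with 0 called and medians of 0.04, 0.25 and 0.05. By limma at an unadjusted p under 0.05, the numbers against unsorted cells were 1, 3 and 2 for side population cells, then 3, 1 and 2 for non-side population cells, for the 3 lists in that order. Between the sorted groups they were 0, 0 and 2.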

How the data were processed

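The authors deposited linear intensities between 0.1 and 74993.2, for 54675 probe sets on each array. GCOS 1.4 appears in the submitters' processing notes with no role stated, and the way probes were summarised is not given in these sources. After leaving out 2% of values at each end, the mean was near 500.1 on every array, so no further scaling was applied. By the platform annotation 41097 probe sets had 1 symbol, 1801 had several and 11777 had none, and 41043 of the first matched RefSeq's gene table (GRCh38.p14). Before log2 a constant of 6.1 was added, equal to the 10th percentile over all arrays, which understates the change of dim genes. Tests used R 4.3.3 and its package limma 3.58.1 (lmFit, contrasts.fit, then eBayes with its trend option), 3 groups in 1 fit and no covariate, and the code was tested on simulated data. The number of arrays limits the precision.

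Members and gene lists were chosen with earlier results of these data known. Values on every array were to be given for members called and for the 3 of smallest p in each comparison, and those of PKM, HK2, SLC2A3, PDK1, GAPDH and LDHA and the single probe sets were added after they were seen. Shared letters did not establish pairs: same-letter deviations correlated at 0.21, 0.50, -0.11 and 0.36 for a to d. Alternatives were constants of 1 and 32, other filters, quantile normalization, other probe set rules, the letter as a block, subsets of arrays, leaving out each array, and each probe set tested alone, the last added after the data were seen.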

Additional observations from a re-analysis of the deposited data

Results flagged for a closer look

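Within each sorted group of 4 arrays, the gap between an extreme value and its neighbour was divided by the group's range and set against Dixon's 95% critical value for 4 samples. Over 68 groups (34 members in 2 groups) 4 exceeded it, and chance flags about 1 in 20 groups. For GAPDH the ratio was 0.864, with non-side population array c at 21226.6 and the other 3 at 39411.3 to 43457.8. DDIT4 had a ratio of 0.851 from side population array b, at 4212.5 against 10742.3 to 12654.1. NDRG1 had 0.841 from non-side population array c, at 1236.1 against 551.0 to 626.6. ANKRD37 had 0.844 from non-side population array b, at 1068.6 against 502.4 to 565.3.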

How the results depend on the processing

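In the fits with 1 value a gene, the 4 called genes kept their signs. In these DDIT4 ran from 1.66 to 2.18 on the log2 scale in side population, ANKRD37 from 1.08 to 1.74, PFKFB3 from 0.94 to 1.38 and EGLN3 from -1.86 to -0.87, but the side of the threshold often changed, and the cause was not tested. With each probe set tested alone, the second EGLN3 probe set had -0.13 (side population) and 0.00 (non-side), and of the calls above those of DDIT4 in side population and PFKFB3 in both comparisons were lost. Side population against unsorted cells had 4 members called, 1 with no filter, 1 (EGLN1) with the median of all probe sets of a gene and 2 (DDIT4 and EGLN3) with AGS-labelled arrays only. Leaving out each array gave 0 to 5, with 0 without unsorted array a or b and 1 without side population array c. Non-side population against unsorted cells had 3, 1 with no filter, and 0 to 4 on leaving out each array, with 0 without unsorted array a or b and 1 without non-side array a or d. The HIF target median moved from 0.172 to -0.068 (side minus non-side) and from 0.64 to 0.44 (side minus unsorted) with the median of all probe sets, and from 0.22 to 0.40 (non-side minus unsorted) without non-side array b. Its leave-one-out range was 0.093 to 0.404. With the letter as a block, 0 members were called between the sorted groups, and no paired reading was established. The 2 unsorted arrays limit every comparison with them.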

Other observations

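Single probe sets of 2 enzymes split by array letter, chosen after their values were seen. One ENO1 probe set read 1571.0 to 4016.6 in sorted arrays a and b, 249.2 to 692.2 in sorted arrays c and d, and 359.9 to 424.5 in unsorted arrays. One PGK1 probe set read 984.3 to 3088.7, 178.2 to 677.8 and 133.7 to 166.8 in the same order. The ENO1 probe set of highest intensity also separated them, at 28592.6 to 33966.9 in sorted arrays a and b, 15057.7 to 23481.7 in c and d, and 23513.5 to 25925.0 in unsorted arrays. That of PGK1 did not, at 19831.2 to 25245.5 against 18469.0 to 31628.4. In side population array a, another ENO1 probe set read 2265.9 against 9407.0 to 27078.2 on the other 9 arrays, and another PGK1 probe set 4730.7 against 8357.8 to 17967.6.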
